A study of Mus musculus with 9 samples.

Results

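Apoe and 8 genes tied to it through the liver X receptors (LXR) were followed in CD11b+ cells of the acetaminophen-injured mouse liver. The 9 genes, of 45777 in the tables, are Apoe, Apoc2, Abca1, Abcg1, Nr1h3, Nr1h2, Mylip, Lpcat3 and Pltp. They were chosen by name as a group with measured values of these samples in view, the high Apoe of one group among them, so their differences between the groups are given as descriptions, and where it is said that one was called at the threshold used for all genes, nothing is read from the call. All 9 mouse samples came from livers injured with acetaminophen (APAP), given intraperitoneally, and the livers were taken 48 hours after it. The 3 samples called PBS here were treated with PBS. The 3 HEK-EV samples had received HEK cell derived SIRP-EV, and the 3 MSC-EV samples MSC derived SIRP-EV, both intravenously 8 hours after APAP. EV stands for extracellular vesicle, HEK for a human embryonic kidney cell line and MSC for mesenchymal stem or stromal cell. The labels do not spell out SIRP and give no strain, age, sex, cage or batch, no uninjured liver is among the samples, and nothing states that each sample is 1 animal, so p-values measure the spread between these samples. The marker CD11b, product of Itgam, sits on neutrophils, monocytes and many macrophages.

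LXRα (Nr1h3) and LXRβ (Nr1h2) are nuclear receptors that pair with retinoid X receptors and are switched on by oxysterols, the oxidised forms of cholesterol that build up in a loaded cell. In macrophages that have eaten dead cells they raise the genes by which cholesterol leaves the cell: the pumps ABCA1 and ABCG1 and the acceptor apolipoprotein E. Liver macrophages take up the debris of dying hepatocytes after APAP, and hepatocytes themselves are the main source of circulating apolipoprotein E.

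Expression is given in transcripts per 1000000 (TPM), a level scaled for transcript length. A difference is that of mean log2(TPM + 1) with its standard error (SE) from limma, and a group mean is given with its SD, n = 3. A gene is said to have passed when its adjusted p (Benjamini-Hochberg over the 13820 genes that reached 1 TPM in 3 or more samples) was under 0.05. All 9 genes were among those tested. The files held no read counts, so depth in reads is unknown. The median ratio of coverage to FPKM, which moves with depth, was 4.90 to 5.87 in the PBS samples, 5.80 to 6.03 in HEK-EV and 6.13 to 6.37 in MSC-EV. Every MSC-EV sample thus lay above every other sample in this ratio. A fit with it as a covariate cannot tell depth from treatment, and its values are given as descriptions. Itgam was present in every sample, at 289 to 377 TPM in PBS, 339 to 434 in HEK-EV and 196 to 255 in MSC-EV. Pancreatic acinar transcripts separated 4 samples from the rest, HEK-EV replicates 1 and 2 and MSC-EV replicates 1 and 3, where 16 acinar genes summed to 41.9 to 3469.6 TPM against 13.3 to 15.4 in the other 5.

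The bases before the start of a gene are where LXR and its partners can bind, and those of 3 members are shown since Apoe, Abca1 and Apoc2 had the largest differences in the MSC-EV group. The sequences are the 250 bases before a RefSeq start on GRCm38.p6, read 5′ to 3′ on the gene's own strand, which is the minus strand for all 3. They lie at chr7:19699189-19699438 for Apoe (the most upstream of its 3 windows, whose start lies inside the span the tables give for the gene), chr4:53159896-53160145 for Abca1 and chr7:19677942-19678191 for Apoc2. Capitals mark the motif matches described after them.
Apoe: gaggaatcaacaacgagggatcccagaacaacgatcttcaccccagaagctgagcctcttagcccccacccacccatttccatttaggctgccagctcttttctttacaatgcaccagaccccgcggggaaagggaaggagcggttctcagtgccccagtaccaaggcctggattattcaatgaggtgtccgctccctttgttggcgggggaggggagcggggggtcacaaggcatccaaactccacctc
Abca1: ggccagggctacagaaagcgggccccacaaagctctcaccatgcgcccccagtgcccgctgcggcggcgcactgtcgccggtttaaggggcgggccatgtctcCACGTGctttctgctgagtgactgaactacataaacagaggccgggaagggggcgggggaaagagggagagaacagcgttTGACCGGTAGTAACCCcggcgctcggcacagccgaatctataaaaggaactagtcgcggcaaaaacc
Apoc2: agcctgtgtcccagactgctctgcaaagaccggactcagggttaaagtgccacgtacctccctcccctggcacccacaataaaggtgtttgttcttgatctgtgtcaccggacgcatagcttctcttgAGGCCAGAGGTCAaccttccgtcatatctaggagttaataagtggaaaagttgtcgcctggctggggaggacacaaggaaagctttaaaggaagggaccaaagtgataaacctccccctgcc

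The RefSeq table of 32851 windows, each of 250 bases before and 50 after a start, matched 8 of the 9 members by symbol; Abcg1 was the member without a match. LXR with its partner binds the DR4 element, a pair of AGGTCA half-sites in tandem separated by 4 bases, searched on both strands. With at most 2 mismatches in the 12 fixed letters it was found in no member's window and in 3.02% of all windows. With 3 mismatches allowed, a setting added after the data were seen, Abca1 held a match on the opposite strand whose first base lies 67 bases before the start, and 21.88% of all windows held one. These letters are the second run of capitals in the Abca1 sequence. The first run is CACGTG, an E-box bound by the TFEB family and other factors, 147 bases before the start, which 7.15% of windows hold. Apoc2 held a DR1 element (half-sites separated by 1 base, bound by PPAR with retinoid X receptor) 122 bases before its start with 1 mismatch. DR1 with at most 2 mismatches was found in 3.86% of windows. The exact half-site AGGTCA within it starts 115 bases before the start of Apoc2 and overlaps the DR1 match. A second one lies 42 bases after the start, outside the printed bases, and 16.26% of windows held at least 1. The Apoe windows held none of these motifs. A match is a description of letters, and the absence of one in so short a window says nothing on binding elsewhere.

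Apoe (gene ID 11816, chromosome 7, 19696244 to 19701310, minus strand), which encodes the lipid carrier that takes up cholesterol from ABCA1 and ABCG1, was among the most abundant transcripts of these cells, ranking between 5 and 19 in every sample. Its level was 4197, 6431 and 5324 TPM in PBS replicates 1, 2 and 3. The HEK-EV samples held 7046, 7588 and 6195 TPM. The MSC-EV samples held 12919.8, 11487 and 11895 TPM, so every MSC-EV sample lay above every other sample, while HEK-EV replicate 3 fell inside the range of PBS. The mean went from 5317 ± 1117 in PBS to 6943 ± 702 in HEK-EV and 12101 ± 738 in MSC-EV. On the log2 scale MSC-EV was above PBS by 1.21 (SE 0.149; ratio of means 2.28) and above HEK-EV by 0.80 (SE 0.149; ratio 1.74). With quantile normalization these differences were 0.71 and 0.38, and neither was called. HEK-EV was above PBS by 0.40 (SE 0.149; ratio 1.31), which became 0.24 without PBS replicate 1 and 0.22 with the depth ratio of each sample as a covariate. In order of level MSC-EV stood highest with a gap to both other groups, and the neighbours HEK-EV and PBS overlapped.

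In absolute terms, no other of the 13793 tested genes with a symbol gained as much TPM as Apoe in any of the comparisons: MSC-EV exceeded PBS by 6783 TPM and HEK-EV by 5157, and HEK-EV exceeded PBS by 1626. By log2 difference it ranked 73, 189 and 232 from the top in the same order. Among the 1652 genes with a mean of at least 100 TPM the ranks were 3, 10 and 17. The 3 comparisons share samples, so these ranks are not independent of one another.

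**Figure D1:**
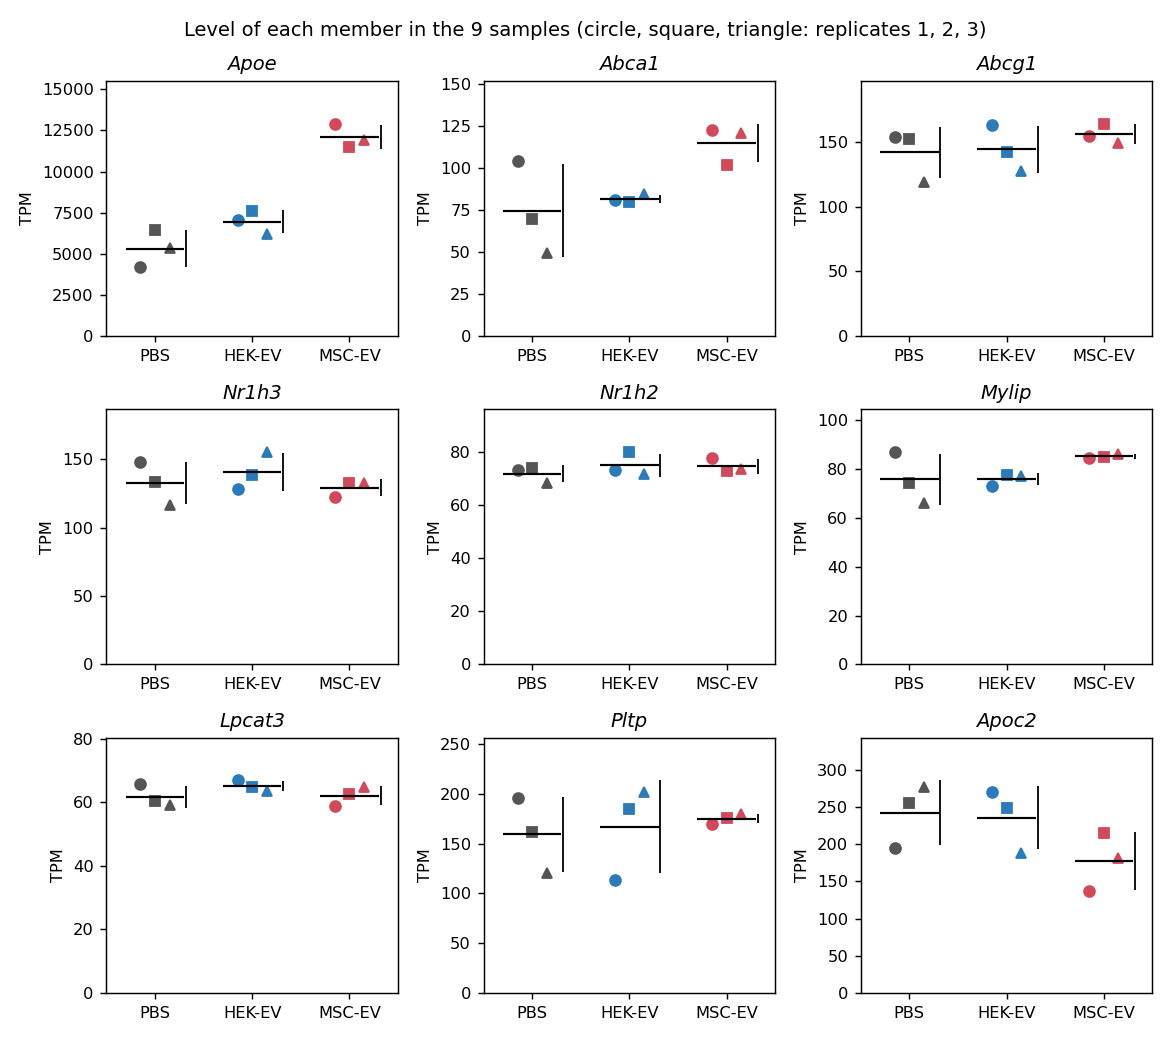
Level in TPM (vertical axes, from 0, a scale for each gene) of the 9 genes in each sample of the 3 groups (circle, square and triangle are replicates 1, 2 and 3; the bar is the mean and the vertical line its SD). The 3 MSC-EV samples stand clear of the other 6 for Apoe, while Abcg1, Nr1h3, Nr1h2, Lpcat3 and Pltp overlap in all 3 groups.

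Apoc2 (gene ID 11813, chromosome 7, 19671579 to 19677941, minus strand) encodes the small apolipoprotein that activates lipoprotein lipase, and its gene lies 18302 bases from Apoe in the same LXR-responsive cluster. It did not follow Apoe. Apoc2 was at 195, 256 and 278 TPM in PBS, at 270.5, 248 and 189 in HEK-EV and at 137, 215 and 181 in MSC-EV. The MSC-EV samples tended to the low side, the lowest of all 9 among them, but overlapped both other groups. The log2 difference was -0.46 (SE 0.193) against PBS and -0.41 (SE 0.193) against HEK-EV, and HEK-EV and PBS differed by -0.04 (SE 0.193). Without MSC-EV replicate 1 the first 2 were -0.28 and -0.24, and with the depth covariate the difference from PBS was -0.89. The ratio of Apoe to Apoc2 was therefore 19.2 to 25.1 in PBS, 26.0 to 32.8 in HEK-EV and 53.5 to 94.3 in MSC-EV, with no overlap between the groups. Apoc2 overlaps a predicted gene, Gm44805, of at most 6.84 TPM.

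Abca1 and Abcg1 are the ABC transporters that hand cholesterol to lipid-poor apolipoproteins and to HDL, and both are textbook LXR targets. Abca1 (gene ID 11303, chromosome 4, 53030789 to 53159988) was at 104, 69.7 and 49.4 TPM in PBS, a spread of over 2-fold within 1 group. It was at 80.8, 80.0 and 84.3 in HEK-EV and at 123, 102 and 121 in MSC-EV. The MSC-EV samples were all above HEK-EV, but PBS replicate 1 lay inside their range. Abca1 was higher in MSC-EV than in PBS by 0.68 (SE 0.213; ratio of means 1.54) and than in HEK-EV by 0.48 (SE 0.213; ratio 1.41), and HEK-EV stood 0.20 (SE 0.213) above PBS. Without PBS replicate 1 the first of these differences was 0.95 and the last 0.47, and without PBS replicate 3 they were 0.42 and -0.06. With the depth covariate HEK-EV stood 0.62 above PBS, and MSC-EV stood 1.40 above PBS and 0.78 above HEK-EV, where Abca1 was called in both. The depth ratio was highest in the MSC-EV samples, so nothing is read from these calls. Abcg1 (gene ID 11307, chromosome 17, 31057694 to 31117984), which exports cholesterol to mature HDL, was at 154, 152 and 119 TPM in PBS, 163, 142 and 127 in HEK-EV and 154, 164 and 149 in MSC-EV. Its groups overlapped throughout, with differences of 0.14 (MSC-EV against PBS), 0.12 (MSC-EV against HEK-EV) and 0.03 (HEK-EV against PBS), each with an SE of 0.115, and the last changed sign under another scaling. Leaving out 1 sample of the pair of groups moved them to between 0.02 (without PBS replicate 3) and 0.21, between 0.03 (omitting HEK-EV replicate 3) and 0.21 (omitting replicate 1 of that group), and between -0.09 (without PBS replicate 3) and 0.11 (without HEK-EV replicate 3). With the depth covariate the Abcg1 differences were 0.33, 0.20 and 0.14 in the same order, and none was called. The ratio of Apoe to Abcg1 was 27.3 to 44.6 in PBS, 43.1 to 53.4 in HEK-EV and 70.0 to 83.9 in MSC-EV, highest in the MSC-EV samples. Its ratio to Abca1 was 40.2 to 108, 73.5 to 94.9 and 98.6 to 113, where PBS overlapped both other groups and MSC-EV lay above HEK-EV.

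The receptors themselves differed between the groups by less than the spread within them. Nr1h3, which encodes LXRα (gene ID 22259, chromosome 2, 91184061 to 91202829), was at 148, 134 and 117 TPM in PBS, 128, 138 and 155 in HEK-EV and 122, 133 and 133 in MSC-EV. Its differences were -0.03 (MSC-EV against PBS), -0.12 (MSC-EV against HEK-EV) and 0.08 (HEK-EV against PBS), each with an SE of 0.0961. Nr1h2, which encodes LXRβ (gene ID 22260, chromosome 7, 44549616 to 44553968), was at 73.4, 74.0 and 68.4 TPM in PBS, 73.4, 80.0 and 71.8 in HEK-EV and 78.0, 72.7 and 73.5 in MSC-EV. The 3 differences lay between -0.01 and 0.06 (SE 0.0614), the groups overlapped, and the sign of the smallest of them, MSC-EV against HEK-EV, changed with the scaling. The mean of LXRα was above that of LXRβ in all 3 groups on the TPM scale (133 ± 15.6 against 71.9 ± 3.09 in PBS). The Nr1h3 locus overlaps Acp2, of up to 148 TPM, on the other strand, and it is not stated whether reads were assigned by strand, so its level is uncertain to that extent.

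The last 3 members are LXR targets outside the efflux step. Mylip encodes an E3 ubiquitin ligase that acts on lipoprotein receptors (gene ID 218203, chromosome 13, 45389742 to 45411940). It was at 86.9, 74.2 and 65.9 TPM in PBS, 72.9, 77.5 and 76.9 in HEK-EV and 84.4, 84.6 and 86.1 in MSC-EV. Every MSC-EV sample was above every HEK-EV sample by a small margin (0.16, SE 0.0880), while PBS replicate 1 was the highest of all 9 (0.18, SE 0.0880, against PBS). With the depth covariate MSC-EV stood 0.26 above HEK-EV and 0.42 above PBS, and Mylip was called in both. Since the depth ratio goes with the group, nothing is read from these calls. The difference from PBS was 0.08 without PBS replicate 3 and 0.28 without PBS replicate 1. HEK-EV differed from PBS by 0.01, with a sign that changed under another scaling. Lpcat3 encodes the enzyme that puts polyunsaturated chains into membrane phospholipids (gene ID 14792, chromosome 6, 124663094 to 124704716). It was at 65.7, 60.4 and 59.3 TPM in PBS, 66.9, 64.9 and 63.6 in HEK-EV and 59.0, 62.7 and 64.8 in MSC-EV, with differences of 0.01, -0.07 and 0.08 (SE 0.0604) for MSC-EV against PBS, MSC-EV against HEK-EV and HEK-EV against PBS. The first 2 of these and the difference of Nr1h3 from PBS changed sign under another scaling. Pltp encodes the phospholipid transfer protein, which moves lipid between lipoproteins (gene ID 18830, chromosome 2, 164839518 to 164857708). It was at 195, 162 and 121 TPM in PBS, 114, 185 and 202 in HEK-EV and 170.1, 176 and 179 in MSC-EV. The range within PBS and within HEK-EV was wider than any gap between groups, and the differences of 0.16, 0.11 and 0.05 had an SE of 0.217. Single samples turned all 3: the first was -0.02 without PBS replicate 3 and 0.32 without PBS replicate 1, the second ran from -0.14 when HEK-EV replicate 1 was left out to 0.27 when replicate 3 was, and the third from -0.14 without PBS replicate 3 to 0.30 on omitting HEK-EV replicate 1. With the depth covariate the Pltp differences were 0.50, 0.25 and 0.25 in the same order, and none was called. Lpcat3 overlaps Emg1 (up to 99.5 TPM) and Pltp overlaps Ctsa (up to 1059 TPM), both on the other strand, so their levels carry the same uncertainty as that of Nr1h3.

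**Figure D2:**
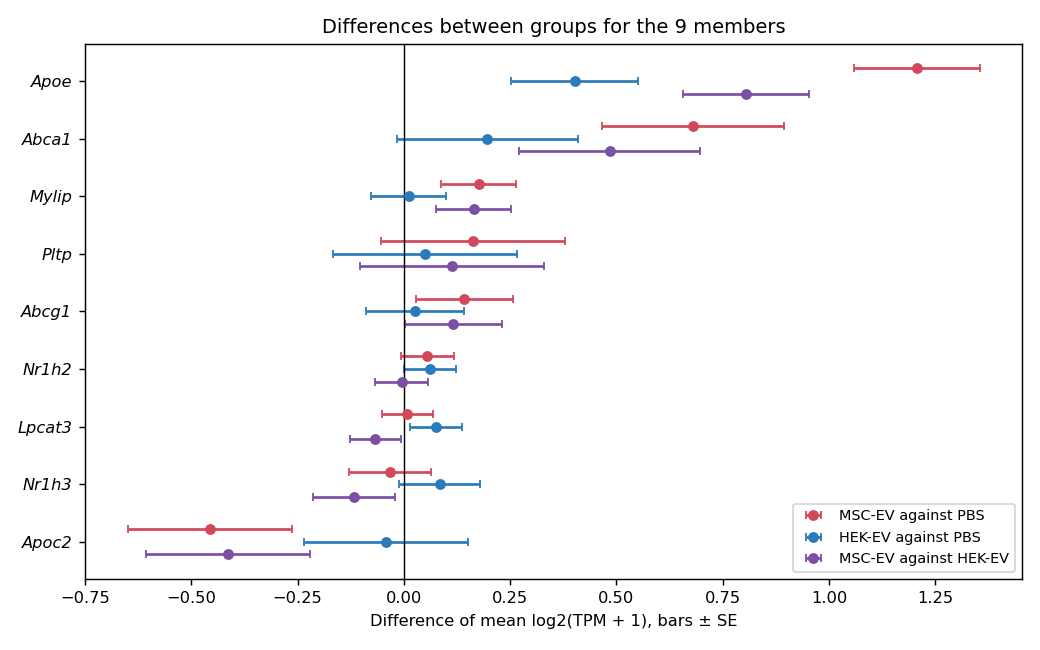
Difference of mean log2(TPM + 1) between groups (horizontal axis, bars ± SE, 3 samples per group) for each of the 9 genes in the 3 comparisons. Apoe lies farthest to the right in all 3, Abca1 comes next, Apoc2 lies to the left, and the other 6 stay between -0.12 and 0.18.

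Counted together, 1 of the 9, Apoe, was past the threshold with higher values in MSC-EV against PBS, where 1.86% of all genes tested were called higher and 3.25% lower. In MSC-EV against HEK-EV it was again Apoe alone, beside 1.51% of genes called higher and 4.4% lower. The HEK-EV group against PBS had none of the 9 called: in limma 0 genes of the 13820 (0%) passed in either direction, and 495 had an unadjusted p under 0.05. Since the genes were chosen with these contrasts known, nothing is read from the counts. Samples of MSC-EV and PBS did not overlap for 1 of the 9 (Apoe, higher), beside 11.2% of all genes higher and 14.9% lower. MSC-EV and HEK-EV did not overlap for 3 (Apoe, Abca1 and Mylip, all higher), beside 12.6% and 17.5%. HEK-EV and PBS overlapped for all 9, beside 5.51% of genes without overlap on the higher side and 2.29% on the lower. The median difference of the 9 was 0.14 for MSC-EV against PBS, 0.11 for MSC-EV against HEK-EV and 0.06 for HEK-EV against PBS. That of all genes tested was 0.01, -0.02 and 0.03 in the same order.

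Single samples decided part of these counts. Without PBS replicate 3 or without MSC-EV replicate 1 none of the 9 was called against PBS, although the Apoe difference was still 1.22 and 1.16. Without PBS replicate 1 there were 3, Apoe (1.05), Abca1 (0.95) and Mylip (0.28). Mylip was at 0.08 against PBS without PBS replicate 3. Against HEK-EV none was called without HEK-EV replicate 1, 2 or 3 or without MSC-EV replicate 1 or 2, where the Apoe difference ran from 0.72 to 0.87, and without PBS replicate 1 both Apoe and Abca1 were called. PBS replicate 1 was the highest PBS sample in 6 of the 9 genes (Abca1, Abcg1, Nr1h3, Mylip, Lpcat3 and Pltp) and the lowest in Apoe and Apoc2, whereas PBS replicate 3 was the lowest in 7. PBS replicate 1 also had the lowest ratio of coverage to FPKM (4.90), and its 8 Ly6C-high monocyte markers summed to 6019 TPM against 11886 and 12269 in PBS replicates 2 and 3. The part of these in the spread of the PBS group was not tested.

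Beyond the 9 genes, 71 genes of the same pathway and locus were listed in 6 groups with earlier results of these data known, and 61 of them were tested. Against PBS, 6 were called higher and 3 lower in MSC-EV, and against HEK-EV 3 were called higher and 6 lower, 14.75% of those tested in each. Of all genes tested 5.11% were called against PBS and 5.91% against HEK-EV, and since the lists were made with earlier results known, nothing is read from the gap. For HEK-EV against PBS limma called 0 of the 61, and 4 had an unadjusted p under 0.05. Apoc1 and Apoc4 stand in both the target and the neighbour list. These calls rested on single samples too: against PBS the 9 became 0 without PBS replicate 2 or 3 or MSC-EV replicate 1 or 2, 3 without MSC-EV replicate 3, 4 without HEK-EV replicate 2 and 20 without PBS replicate 1. Against HEK-EV the 9 became 0 without any 1 of the HEK-EV samples or MSC-EV replicate 1 or 2, and 17 without PBS replicate 1. Adding the acinar split to the fit left 0 against PBS and 8 against HEK-EV.

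**Figure D3:**
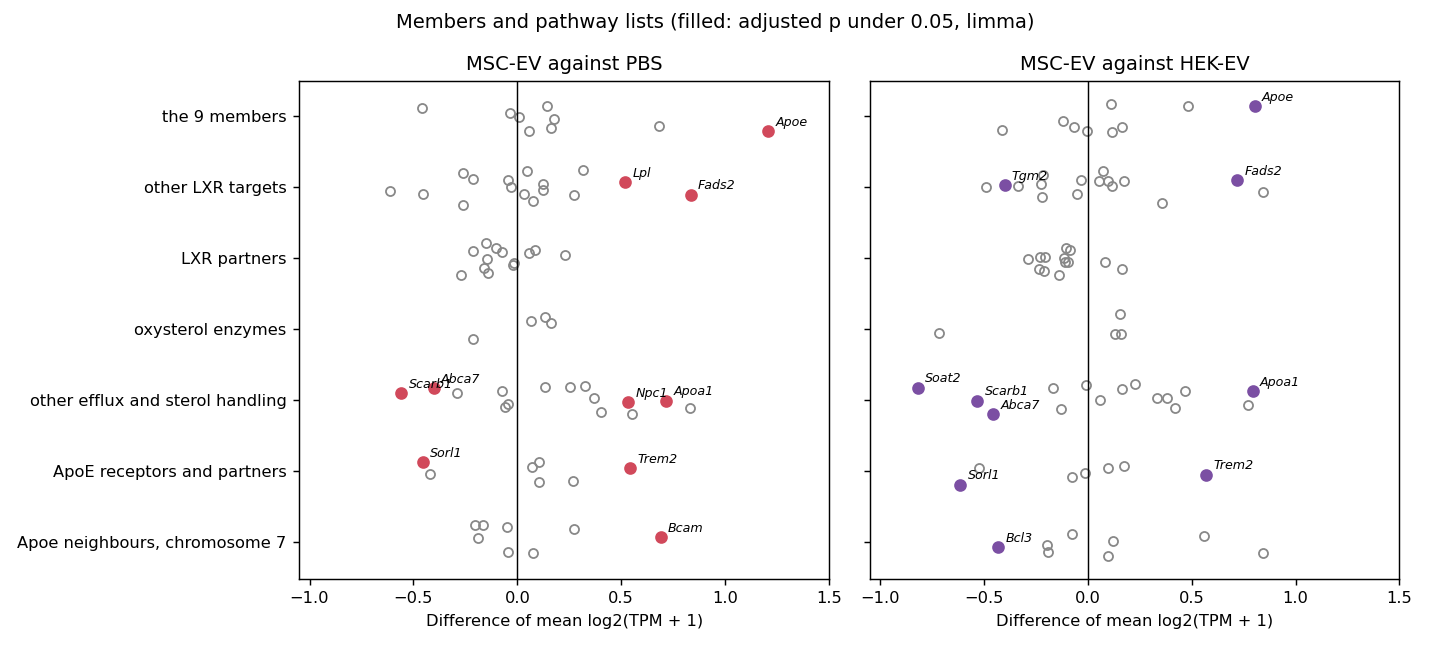
Difference of mean log2(TPM + 1) (horizontal axis) of MSC-EV against PBS and against HEK-EV for the 9 genes and the tested genes of each pathway list (rows; points are genes, spread vertically for sight, filled and named where the adjusted p is under 0.05 in limma). Each list has points on both sides of 0, and Apoe lies farther right than any listed gene in the comparison with PBS.

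Among 18 LXR targets other than the 9, 16 were tested and 2 were called higher against PBS, beside 1.86% of all genes tested. Means in MSC-EV were higher than in PBS for 9 of the 16 and lower for 7. Lpl, which encodes lipoprotein lipase, was at 1138, 849.6 and 782 TPM in PBS and 1296, 1383 and 1241 in MSC-EV, with HEK-EV inside the PBS range at 966 to 1049 (0.52, SE 0.123, adjusted p = 0.0463; 0.36, adjusted p = 0.118 against HEK-EV). Fads2, the fatty acid desaturase, was low throughout but went from 1.48 to 1.85 TPM in PBS and 1.79 to 2.04 in HEK-EV to 3.23 to 4.71 in MSC-EV. It was higher than in PBS by 0.83 (SE 0.135, adjusted p = 0.0213) and than in HEK-EV by 0.72 (SE 0.135, adjusted p = 0.0248). Tgm2, a transglutaminase used in dead cell uptake, fell to 268 to 282 TPM in MSC-EV from 338 to 390.2 in HEK-EV (-0.40, SE 0.0654, adjusted p = 0.0207). Against the 309 to 339 TPM of PBS it was lower by limma without passing (-0.26, adjusted p = 0.0537). Samples of MSC-EV and PBS did not overlap for 2 of the 16 on the higher side and 3 on the lower. Of all genes tested, 11.2% did not overlap on the higher side and 14.9% on the lower. Scd1 was the lowest of these (-0.61, adjusted p = 0.0791 in limma). Srebf1, whose SREBP-1c form drives fatty acid synthesis under LXR, averaged 31.7 ± 4.09, 34.6 ± 1.12 and 33.3 ± 0.349 TPM in PBS, HEK-EV and MSC-EV. Its difference from PBS was 0.08 (SE 0.0869, adjusted p = 0.669). Apoc1, a further apolipoprotein of the Apoe cluster, averaged 221 ± 50.8, 202 ± 59.7 and 212 ± 36.9 TPM (-0.05, SE 0.23, adjusted p = 0.931 against PBS). The median of the 16 was 0.04 against PBS and 0.01 against HEK-EV, and it was 0.03 in HEK-EV against PBS, where Apoc4 had the smallest p of the list (-0.57, SE 0.231, adjusted p = 0.999). Abcg5 and Abcg8, the sterol transporters of hepatocyte and gut, stayed at or under 0.106 TPM in every sample.

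None of the 13 tested partners and coregulators of LXR passed in any comparison in limma, and at most 1 had an unadjusted p under 0.05. Of all 13820 genes tested in limma, 3184 were under it in MSC-EV against PBS and 3217 in MSC-EV against HEK-EV. In HEK-EV against PBS it was 495. Rxra, the main retinoid X receptor partner, averaged 64.3 ± 8.44, 67.0 ± 5.35 and 75.2 ± 6.66 TPM (0.23, SE 0.104, adjusted p = 0.230 against PBS). In HEK-EV against PBS the smallest p of the list was that of Tbl1x, a subunit of corepressor complexes, at 0.14 (adjusted p = 0.999). Of the 8 listed enzymes that make or remove oxysterols, 4 were tested and none passed, with at most 1 at an unadjusted p under 0.05. Cyp27a1, which makes 27-hydroxycholesterol, averaged 75.1 ± 8.27, 70.9 ± 10.7 and 78.5 ± 3.24 TPM. Ch25h, which makes 25-hydroxycholesterol, was too low to be tested, at 0.396 to 1.30 TPM over the 9 samples. Hsd3b7 had the smallest p against PBS (0.16, adjusted p = 0.275). Cyp7b1, which removes oxysterols, had the smallest p in the other comparisons (-0.72, adjusted p = 0.0563 for MSC-EV against HEK-EV, and 0.50, adjusted p = 0.999 for HEK-EV against PBS).

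The list of other sterol efflux, ester cycle and lysosomal egress genes had 15 members, all tested, and moved in both directions. Npc1, which lets cholesterol out of the lysosome, rose to 131, 132 and 132 TPM in MSC-EV from 114, 88.3 and 74.1 in PBS (0.53, SE 0.125, adjusted p = 0.0441). It was at 99.2 to 102 in HEK-EV (0.38, adjusted p = 0.101). Apoa1, the main protein of HDL and also a hepatocyte marker, rose to 37.8 to 47.1 TPM in MSC-EV. It was at 20.1 to 27.6 in PBS (0.72, SE 0.158, adjusted p = 0.0381) and 18.9 to 27.8 in HEK-EV (0.79, SE 0.158, adjusted p = 0.0269). Scarb1, the HDL receptor SR-BI, fell to 122 to 149 TPM from 181 to 222 in PBS (-0.56, SE 0.0912, adjusted p = 0.0213) and 189 to 203 in HEK-EV (-0.53, SE 0.0912, adjusted p = 0.0216). Abca7, an ABC transporter related to ABCA1, fell to 35.4 to 36.5 TPM in MSC-EV. Its PBS samples were at 43.9 to 51.0 (-0.40, SE 0.0643, adjusted p = 0.0208) and its HEK-EV samples at 48.8 to 50.9 (-0.46, SE 0.0643, adjusted p = 0.0205). Soat2, an enzyme that esterifies cholesterol, stood out in HEK-EV, at 8.30 to 10.8 TPM against 4.03 to 5.96 in MSC-EV (-0.82, SE 0.151, adjusted p = 0.0243). Against the 4.27 to 5.30 TPM of PBS, HEK-EV was higher by 0.77 without passing (adjusted p = 0.999, the smallest p of the list). The median over the 15 was 0.25 against PBS and 0.17 against HEK-EV. For HEK-EV against PBS it was 0.05. Npc1 overlaps Rmc1 (up to 49.6 TPM) and Srebf1 of the list before overlaps Rai1, so their levels are uncertain to that extent.

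Of 9 receptors and partners of apolipoprotein E, 7 were tested. Trem2, a lipid and lipoprotein receptor of macrophages, rose to 528, 505 and 461 TPM in MSC-EV. It was at 417, 307 and 308 in PBS (0.54, SE 0.12, adjusted p = 0.0380) and 335, 364 and 308 in HEK-EV (0.57, SE 0.12, adjusted p = 0.0306). Sorl1, a sorting receptor, fell to 69.8 to 75.5 TPM from 87.5 to 107 in PBS (-0.46, SE 0.0933, adjusted p = 0.0313) and 100.3 to 121 in HEK-EV (-0.61, SE 0.0933, adjusted p = 0.0205). Sort1 had the smallest p in HEK-EV against PBS (0.12, adjusted p = 0.999). The Apoe level per Trem2 level was 10.1 to 20.9 in PBS, 20.1 to 21.0 in HEK-EV and 22.8 to 25.8 in MSC-EV. The MSC-EV samples were above all others by a small margin. This ratio uses the Apoe values again, so it adds no separate evidence.

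Of 8 tested neighbours of Apoe on chromosome 7, 1 was called in each comparison of MSC-EV, and neither was next to Apoe. Tomm40, which encodes a pore of mitochondrial import and whose span ends 2 bases from that of Apoe on the same strand, averaged 44.8 ± 4.97, 43.3 ± 4.89 and 47.0 ± 0.325 TPM in PBS, HEK-EV and MSC-EV (0.07, SE 0.0959, adjusted p = 0.709 against PBS). Apoc1, 3584 bases away on the other side, overlapped between all groups. Bcam, an adhesion molecule 54827 bases away, was called higher against PBS (0.69, SE 0.164, adjusted p = 0.0463) at 4.60 to 6.06 TPM against 2.53 to 3.18. Bcl3, an NF-κB regulator 107151 bases away, was called lower against HEK-EV (-0.43, SE 0.0992, adjusted p = 0.0387) at 35.6 to 39.0 TPM against 44.7 to 53.7. Apoc4, a weakly expressed apolipoprotein gene that overlaps Gm44805 (up to 6.84 TPM, above its own level) on the same strand, was at 1.35 to 3.22 TPM in MSC-EV against 0.637 to 1.28 in HEK-EV (0.85, SE 0.231, adjusted p = 0.0628) and had the smallest p in HEK-EV against PBS, as given above.

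**Figure D4:**
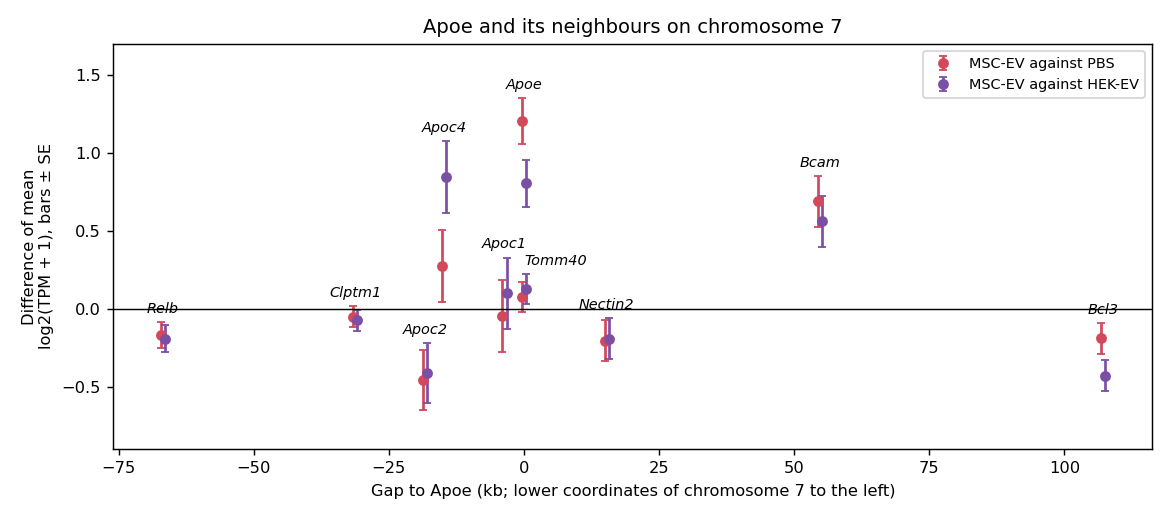
Difference of mean log2(TPM + 1) (vertical axis, bars ± SE) of MSC-EV against PBS and against HEK-EV for Apoe and the tested genes around it, by the gap in kb between the gene and Apoe (horizontal axis). Apoe stands at 1.21 and 0.80 with Tomm40 and Apoc1 on either side near 0 and Apoc2 below 0.

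The genes whose pattern over the 9 samples was most like that of Apoe were found by the root mean square difference between deviations of log2(TPM + 1) from each gene's own mean, among 8502 tested genes with a mean of at least 10 TPM. The 5 closest were TrnI, a mitochondrial tRNA (0.30), Ambp, a plasma protein of hepatocytes (0.32), Nr4a3, a nuclear receptor (0.34), Clu, the apolipoprotein clusterin (0.34), and Ctsd, the lysosomal protease cathepsin D (0.34). TrnI overlaps ND1, of up to 5919 TPM, so its value is uncertain. Ctsd was at 4442, 3157 and 3166 TPM in PBS, 3701, 3963 and 3575 in HEK-EV and 6348, 6349 and 5242 in MSC-EV. Clu was at 53.2, 44.5 and 42.6 TPM in PBS, 49.4, 63.5 and 69.9 in HEK-EV and 112, 145 and 149 in MSC-EV. Both lay higher in all 3 MSC-EV samples than in the other 6, which their choice by likeness to Apoe favours, so nothing is read from it. Of the other members Abca1 came closest to Apoe, at rank 248 of 8501, and Apoc2 was among the least alike, at rank 8046. This is a description over samples that share 3 groups and has no p.

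Markers of cell types differed between the groups too, some higher and some lower in MSC-EV. They are set beside Apoe, since in bulk RNA fewer cells of a type cannot be told apart from less RNA per cell. For the counts of markers below, 3184 of all 13820 genes tested had an unadjusted p under 0.05 in limma against PBS. Against HEK-EV 3217 had. The 20 hepatocyte markers, none of them at 0 in all samples, summed to 465 to 563 TPM in PBS, 379.8 to 608 in HEK-EV and 780.0 to 918 in MSC-EV. All 18 tested ones had higher means in MSC-EV than in PBS, and 4 passed (Ambp, Apoa1, Trf and Cyp2e1). All 18 also had higher means than in HEK-EV, where 8 passed (Ambp, Apoa1, Alb, Trf, Ahsg, Serpina1a, Hpx and Apoh). Alb, which encodes albumin, was at 135 to 185 TPM in PBS, 89.9 to 193 in HEK-EV and 257 to 329 in MSC-EV (0.93, adjusted p = 0.0591 against PBS, and 1.14, adjusted p = 0.0317 against HEK-EV). The ratio of Apoe to Alb overlapped between all groups, at 28.8 to 47.5, 32.1 to 78.4 and 34.9 to 46.4. The Apoe level was therefore at least 28.8 times that of Alb in every sample. The 11 Kupffer cell markers summed to 3318 to 4101, 2435 to 4574 and 2018 to 3338 TPM, and none passed in limma in any comparison, with at most 2 at an unadjusted p under 0.05. Lower means in MSC-EV were found for 10 of the 11 against PBS (median difference -0.45) and for 8 against HEK-EV (-0.42). The 8 Ly6C-high monocyte markers, of the young monocytes that enter the injured liver, summed to 6019 to 12269 TPM in PBS, 7632 to 9637 in HEK-EV and 3773 to 4571 in MSC-EV. Of these, 5 passed as lower against PBS and 3 against HEK-EV. Biliary markers summed to 741 to 1710.1, 895 to 1185 and 1772 to 2360.0 TPM, mostly Spp1, which macrophages also make (0.91, adjusted p = 0.0773 against PBS). All 6 tested had higher means in MSC-EV than in PBS, and 3 low ones, Epcam, Krt19 and Sox9, passed as higher against both other groups. Krt19, a keratin of bile duct epithelium, rose to 3.82 to 8.50 TPM in MSC-EV from 0.884 to 1.74 in PBS (1.54, adjusted p = 0.0231) and 1.12 to 1.75 in HEK-EV (1.39, adjusted p = 0.0248). Sinusoidal endothelial markers summed to 639 to 703, 564 to 721 and 354 to 478. All 8 had lower means in MSC-EV in both comparisons, with a median of -0.79 against PBS, where all 8 had an unadjusted p under 0.05, and -0.72 against HEK-EV, and Fcgr2b passed in both. The 12 neutrophil markers summed to 3117 to 5737 TPM in PBS, 5126 to 7038 in HEK-EV and 3042 to 3844 in MSC-EV, without overlap between the groups given vesicles. Of 11 tested, 8 had lower means in MSC-EV in each comparison, and Csf3r passed as lower against HEK-EV (-0.35, adjusted p = 0.0402). Ltf, the granule protein lactoferrin, passed as higher at 4.76 to 7.43 TPM, against 2.88 to 2.99 in PBS (adjusted p = 0.0348) and 1.45 to 2.84 in HEK-EV (adjusted p = 0.0205). The 8 genes listed for myeloid and CD11b+ cells summed to 24319 to 26571 TPM in PBS, 21970 to 25288 in HEK-EV and 20583 to 26184 in MSC-EV. Lower means in MSC-EV were found for 7 of them in each comparison, with a median difference of -0.15 against PBS and -0.13 against HEK-EV. Of the 8, Itgb2, the integrin partner of CD11b, fell to 529.5 to 624 TPM in MSC-EV from 752 to 874 in PBS (-0.49, adjusted p = 0.0217) and 806 to 881 in HEK-EV (-0.54, adjusted p = 0.0205). Ptprc, which encodes the leukocyte antigen CD45, fell to 418 to 428 TPM from 515 to 647 in PBS (-0.46, adjusted p = 0.0271) and 574.5 to 669 in HEK-EV (-0.53, adjusted p = 0.0207). Itgam itself fell against HEK-EV (-0.70, adjusted p = 0.0256) and stood at -0.53 against PBS (adjusted p = 0.0553). With the replicate block in limma, Itgam passed against PBS (adjusted p = 0.0167) and Ptprc did not (adjusted p = 0.0554), at unchanged differences. Neither Itgb2 nor Ptprc was called against PBS with the acinar split or in only the 6 samples compared. The same held without PBS replicate 2 or 3 or MSC-EV replicate 1 or 2. Against HEK-EV, Itgb2, Ptprc and Itgam were not called without any 1 of the HEK-EV samples or MSC-EV replicate 1 or 2. The 7 dendritic cell markers summed to 94.6 to 127 TPM in PBS, 79.2 to 111 in HEK-EV and 127 to 165 in MSC-EV, and none passed in limma, with at most 3 at an unadjusted p under 0.05. The 8 lymphocyte markers summed to 6.98 to 10.4, 7.41 to 15.7 and 9.58 to 12.8 TPM, with 3 tested, and Nkg7, a granule gene of killer cells, passed as higher against PBS (0.70, adjusted p = 0.0424) and HEK-EV (0.66, adjusted p = 0.0468). The 9 stellate cell markers summed to 12.8 to 22.8, 14.2 to 21.0 and 17.0 to 34.2 TPM. Of 5 tested, 4 had higher means in MSC-EV in each comparison, and in limma none passed or had an unadjusted p under 0.05. The part of these cell types in the Apoe difference was not tested. In a fit that included the acinar split, Apoe was 1.09 above PBS, where it was no longer called, and 0.80 above HEK-EV.

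**Figure D5:**
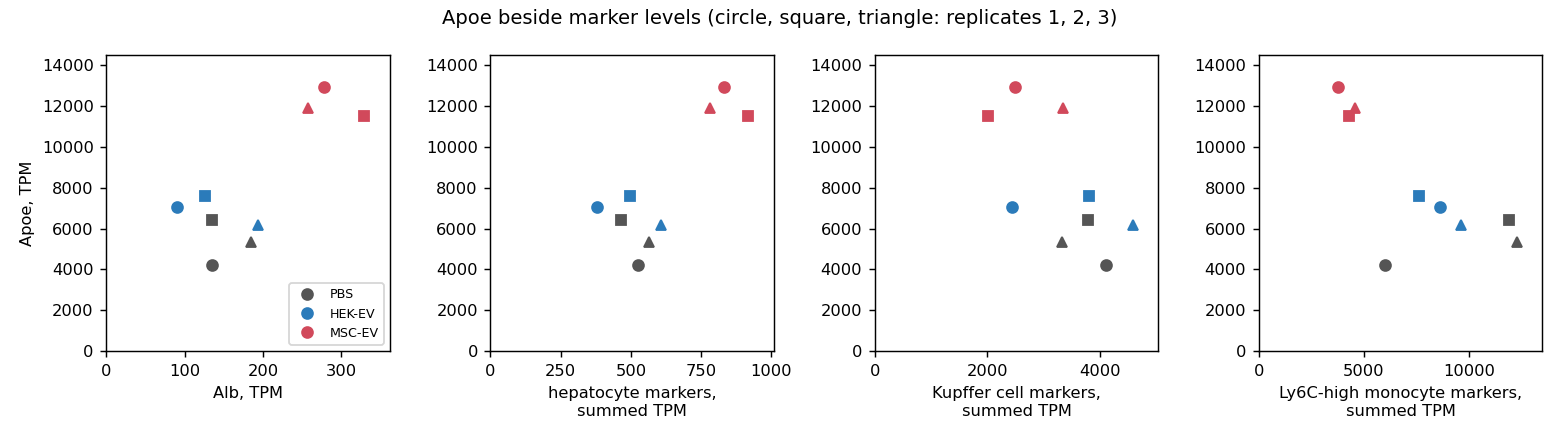
Apoe in TPM (vertical axes) against Alb and the summed TPM of hepatocyte, Kupffer cell and Ly6C-high monocyte markers (horizontal axes) in the 9 samples (circle, square and triangle are replicates 1, 2 and 3). The MSC-EV samples combine high Apoe with high Alb and low Ly6C-high monocyte markers, and PBS replicate 1 combines the lowest Apoe with few monocyte markers.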

How the data were processed

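Bulk RNA sequencing of CD11b+ liver cells was available for 9 samples, grouped by the treatment in their labels. RNA was extracted with Trizol and made into TruSeq Stranded mRNA libraries, per the labels' protocols. The submitters' processing notes name HISAT2 2.1.0, StringTie and the build mm10. Strand handling in counting is not given in the sources used here. Each deposited table gave TPM, FPKM and coverage (mean read signal over a gene) per gene, per the file headers. TPM and FPKM were used as the authors deposited them, and coverage only for its ratio to FPKM. Gene IDs were matched to the RefSeq table of GRCm38.p6 (45679 of 45777, 99.79%, had a symbol, and 96.37% the same start and end). Rows of an ID were summed.

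Groups were compared with limma 3.58.1 in R 4.3.3 (lmFit and eBayes with a trend) on log2(TPM + 1), all 9 samples in 1 fit, no covariate, keeping genes that reached 1 TPM in 3 or more samples. Adjusted p is Benjamini-Hochberg over 13820 genes, two-sided, with a threshold of 0.05. An exact permutation test of 3 against 3 cannot go below 0.1 and was not used. The fit was tested on simulated data. Members and lists were chosen with earlier results of these data known. All members were named, with up to 4 genes per list, direction and comparison of smallest p among those past the threshold, the gene of smallest p where none passed, and Srebf1, Apoc1, Lpl, Rxra, Cyp27a1, Ch25h and Npc1 always, and some genes this rule names are not reported here. Marker genes were named beside the result they touch. The alternatives changed the pseudocount to 0.1, the filter (none, or 5 TPM), the unit (FPKM), the scaling (median of ratios, quantile), the samples (only the 6 compared, or each left out in turn) and the model: array weights, the replicate number as a block, and the depth ratio or the acinar split (a median above 0.3 TPM over 16 genes) as a covariate. Python 3.11.15 with numpy 2.4.6, pandas 2.3.3 and matplotlib 3.10.9 was used for tables, motifs and figures.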

Additional observations from a re-analysis of the deposited data

How the results depend on the processing

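With 3 samples per group and no counts, no value carries a counting error, and small differences of the members cannot be resolved. Of 540 member differences recomputed under 20 alternatives, 525 moved by less than the spread between replicates, 15 moved further and 0 met the rule for a reversal of a called difference. In some alternatives the sign changed for Nr1h3, Lpcat3 and Pltp in MSC-EV against PBS, for Nr1h2, Lpcat3 and Pltp in MSC-EV against HEK-EV, and for Abca1, Abcg1, Nr1h3, Mylip, Pltp and Apoc2 in HEK-EV against PBS. The cause of the changes below was not tested, apart from fewer samples or more genes tested where the setting says so.

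Genes called in MSC-EV against PBS (706) were 361 with no filter, 77 in only the 6 samples compared, 4163 with array weights, 404 with the replicate block, 1376 with the depth covariate and 21 with the acinar split. Leaving out 1 sample gave 5 to 1861. In HEK-EV against PBS (0) they were 4 with no filter and 0 to 2 leaving out 1 sample. In MSC-EV against HEK-EV (817) they were 387 with no filter, 459 on FPKM, 501 with median-of-ratios scaling, 2081 with weights, 448 with the block and 1478 with depth, and 0 to 1369 leaving out 1 sample. The split of higher and lower calls in MSC-EV against PBS was 257 and 449 on TPM, 350 and 205 on FPKM, 279 and 333 with median-of-ratios scaling and 312 and 389 with quantile normalization. In MSC-EV against HEK-EV it was 209 and 608, 273 and 186, 220 and 281, and 316 and 378.

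Pathway genes called against PBS (9) were 4 with no filter, 0 in the 6 samples, 30 with weights, 4 with the block, 16 with depth, 0 with the acinar split and 0 to 20 leaving out 1 sample. Against HEK-EV (9) they were 5 with no filter, 15 in the 6 samples, 19 with weights, 18 with depth and 0 to 17 leaving out 1 sample.

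The Apoe difference from PBS was 0.71 with quantile normalization and 0.89 with the depth covariate, and that from HEK-EV was 0.38 with quantile normalization. It was not called under quantile normalization in either comparison, nor against PBS with the acinar split, nor against HEK-EV with no filter. With the depth covariate Abca1 was 1.40 and Mylip 0.42 above PBS, and both were called. The depth ratio was highest in the MSC-EV samples, so depth and treatment cannot be told apart in that fit. With array weights Abca1, Mylip and Apoc2 were called against PBS as well. Against HEK-EV, Abca1 was called in the 6 samples (0.48), with weights (0.52), with depth (0.78) and without PBS replicate 1 (0.48), and Mylip with depth (0.26).

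Samples of the same replicate number did not deviate together: over 9 such pairs the correlation of their deviations ran from -0.499 to 0.058, and 0 were over 0.1. The replicate block therefore stands for a shared number and no known pairing. It left the member counts at 1, 0 and 1.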
